A study of Mus musculus with 5 samples.

Results

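The genes examined here are 47 genes of the cell cycle and of mitosis, chosen by name, with the proliferation marker *Mki67* at their head. Each matched 1 row by its symbol, so that they are 47 of the 47729 genes in the deposited count table, and all 47 passed the filter on low counts. The table holds RNA-seq counts of dermal group 2 innate lymphoid cells (dILC2s) sorted from skin without stimulation in culture, in 3 WT libraries (pools 5, 6 and 13) and 2 libraries labelled Rag1-/- (pools 2 and 7), all on the C57BL/6 background. By the study's methods the mice were female and between 8 and 13 weeks old, and each library is a pool of cells from several animals of 1 genotype, 30 WT and 16 Rag1-/- mice in all by the study's design text (its methods give a larger number for Rag1-/-), so that a spread between libraries is a spread between pools and not between single mice. RAG1 is needed for V(D)J recombination, and mice without it have no mature T or B cells. The labels give the cell type of the Rag1-/- libraries as type 3, and the study's text as type 2.

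A dividing cell passes from G1 into S phase, where it copies its DNA, and through G2 into mitosis, where it separates the copies. D-type cyclins with CDK4 or CDK6 begin this by inactivating RB, CDK inhibitors hold it back, and E2F factors then switch on the genes for replication origins, helicase and nucleotide supply. The genes of mitosis come later and are switched on through the MuvB complex with B-MYB and FOXM1. In resting skin the dividing cells include basal keratinocytes and hair follicle cells as well as resident lymphocytes, and a bulk library cannot tell fewer cycling cells from less RNA per cycling cell.

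The WT libraries held between 32939428 and 39477243 counts, and the libraries labelled Rag1-/- held 8050562 (pool 2) and 38922750 (pool 7). *Rag1* itself was counted 4, 0 and 5 times in WT (pools 5, 6, 13), 5 times in pool 2 and 48 times in pool 7 of the libraries labelled Rag1-/-, so that the count over the whole gene did not tell the genotypes apart in the direction of the labels, and where in the gene these reads fell was not analysed here. A list of 30 genes of all leukocytes had a summed level of 1203 to 2861 CPM (counts per 1000000 of the library total) in WT and of 8512 and 9726 CPM in the libraries labelled Rag1-/-, and 25 of the 30 genes were called higher. A list of 25 keratinocyte genes had 36567 to 51650 CPM in WT and 9441 and 21265 CPM in the libraries labelled Rag1-/-, and 11 of the 25 were called lower. No gene of either list was at 0. ILC2 markers were present in every library, with *Gata3* between 199 and 319 CPM in WT and at 558 and 369 CPM in pools 2 and 7. A list of 20 ILC2 genes summed to 1743 to 3495 CPM in WT and to 8305 and 6403 CPM in pools 2 and 7 (median log2 fold change 1.84). A list of 10 genes of type 3 cells summed to 267 to 432 CPM in WT and to 1297 and 881 CPM in pools 2 and 7 (median 2.39). Keratinocyte genes, which a CD45-based sort should remove, were also present in every library. The part of these other cells in the levels below was not tested.

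Between the genotypes, 1 of the 47 genes was past the threshold, which asked for a log2 fold change beyond 1 in either direction and for 0.05 or less as the p-value adjusted over 19011 genes (quasi-likelihood test of edgeR). This was *Cenpa*, higher in the libraries labelled Rag1-/-, and no member was called lower. Over all genes tested 5.73% were past the same threshold, 3.57% as higher and 2.16% as lower. *Ccnd3* (higher) and *Ccnd1* (lower) passed on the adjusted p-value and stayed under the fold threshold, which makes 3 of 47 genes against 6.27% of all genes on the p-value alone. Of the 47 log2 fold changes 26 were positive and 21 negative, with a median of 0.02, where the median of all genes tested was also 0.02. In 14 genes (29.8%) both libraries labelled Rag1-/- were above every WT library, against 21.9% of all genes tested, and in 5 genes (10.6%) both were below, against 24% of all genes. In both directions together the groups did not overlap in 40.4% of the members and in 45.9% of all genes. For 1 gene, exact permutation of 3 and 2 libraries gives no p below 0.1, and the p-values rest on a spread shared across genes and measured between pools.

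**Figure D1:**
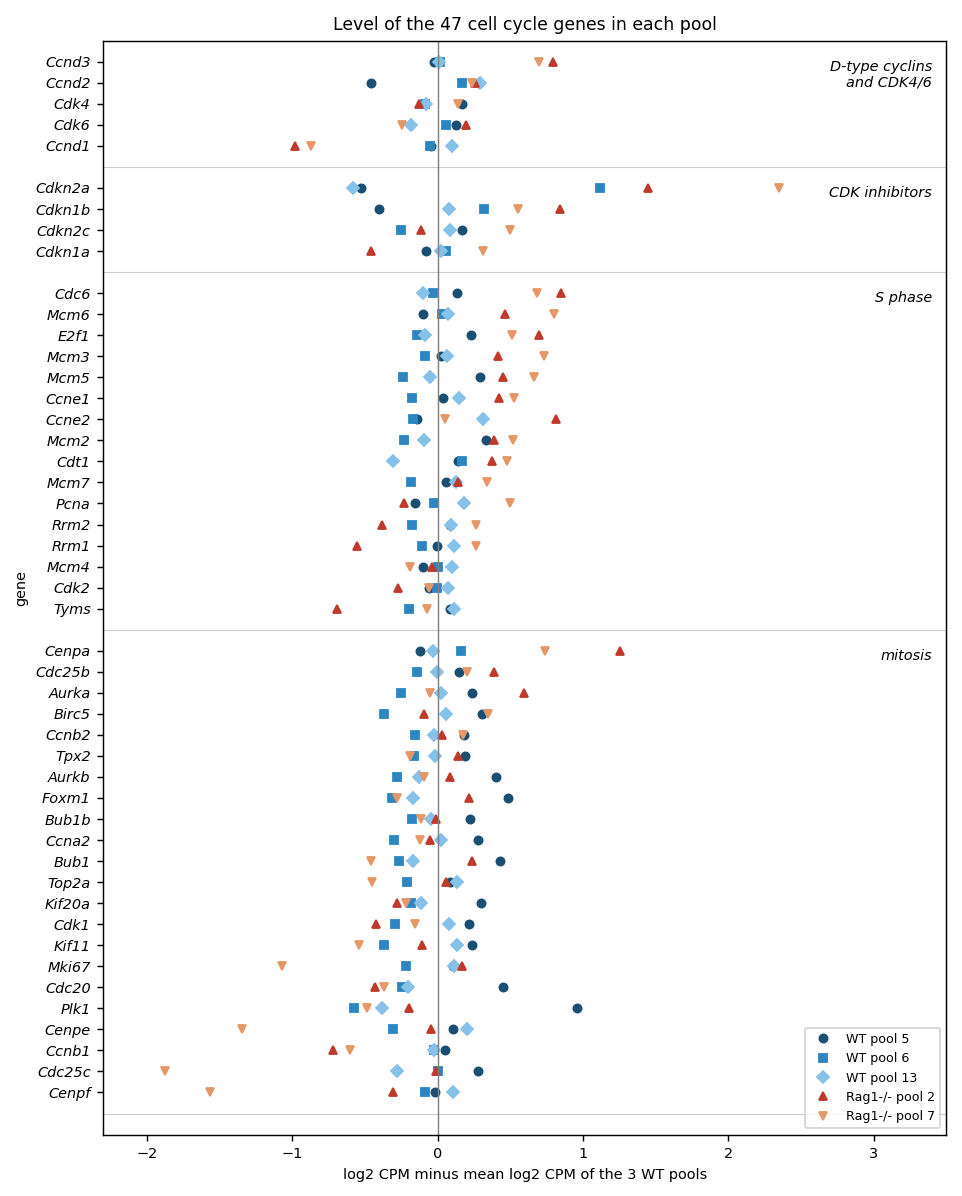
Level of each of the 47 genes in each library, as log2 CPM minus the mean log2 CPM of the 3 WT pools, grouped by role and sorted by fitted log2 fold change. Circles, squares and diamonds are WT pools 5, 6 and 13, and triangles are the libraries labelled Rag1-/- (up, pool 2; down, pool 7). Both triangles lie right of every WT pool for 9 of 16 S phase genes and for 2 of 22 mitosis genes (9.09%), against 21.9% of all genes tested.

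The D-type cyclins, which couple growth signals to CDK4 and CDK6, went in different directions. *Ccnd1* (chromosome 7 of GRCm38, 144929931 to 144939925), encoding cyclin D1, had 54.7, 54.4 and 60.3 CPM in WT pools 5, 6 and 13 and 28.6 and 30.8 CPM in the libraries labelled Rag1-/- (pools 2 and 7). Both libraries labelled Rag1-/- were near 30 CPM and every WT library was above 50, at log2 fold change -0.89 (SE, the standard error, 0.19, adjusted p = 0.0401 by edgeR). *Ccnd3* (chromosome 17, 47505051 to 47599691), encoding cyclin D3, the member best known from lymphocytes, had 43.2, 44.4 and 44.3 CPM in WT and 76.0 and 71.1 CPM in the libraries labelled Rag1-/-. The WT pools were close together, with a mean of 44.0 ± 0.659 CPM (SD, n = 3), and both other libraries were above them, at log2 fold change 0.77 (SE 0.17, adjusted p = 0.0453 by edgeR). *Ccnd2* (chromosome 6, 127125162 to 127152193), encoding cyclin D2, had 244, 378 and 410.0 CPM in WT and 401 and 396 CPM in the libraries labelled Rag1-/-. Its groups overlapped, since only WT pool 5 was low (log2 fold change 0.24, SE 0.27, adjusted p = 0.619 by edgeR).

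Per kilobase of exon, *Ccnd2* had the highest level of the D-type cyclins in both groups, at 36.6 ± 9.33 CPM per kb in WT (SD, n = 3) and 42.4 ± 0.387 in the libraries labelled Rag1-/- (SD, n = 2). Next in WT was *Ccnd1* at 11.99 ± 0.704 CPM per kb, above *Ccnd3* at 5.01 ± 0.0751. In the libraries labelled Rag1-/- *Ccnd3* was at 8.39 ± 0.393 CPM per kb and *Ccnd1* at 6.30 ± 0.336. These orders depend on the length used. The length here joins all annotated exons of a gene, 8775 bases for *Ccnd3*, 4709 for *Ccnd1* and 9409 for *Ccnd2*. The deposited lengths are 952, 3740 and 6330 bases in the same order. The groups of both kinase partners overlapped. *Cdk4* had 81.9, 68.8 and 68.9 CPM in WT and 66.6 and 80.5 CPM in the libraries labelled Rag1-/- (log2 fold change 0.05, SE 0.20), and *Cdk6* was at log2 fold change 0.01 (SE 0.21). *Ccnd1* and *Ccnd3* kept their sign in the 13 other settings examined, from -1.04 to -0.79 and from 0.70 to 0.84. Their adjusted p-values were above 0.05 without any 1 WT library (0.105 to 0.130 and 0.139 to 0.151) and without Rag1-/- pool 2 (0.0750 and 0.0697), and that of *Ccnd3* also without the filter (0.0650). Keratinocyte genes had a median log2 fold change of -1.495 (25 genes) and leukocyte genes one of 2.09 (30 genes) between the same libraries, and their part in these results was not tested. *Ccnd1* overlaps *Oraov1* over 1771 bases, *Ccnd3* overlaps *Bysl* over 361 bases and *Cdk4* overlaps *Tspan31* over 604 bases. The library kit does not mark strand, so that reads from shared bases cannot be told apart.

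**Figure D2:**
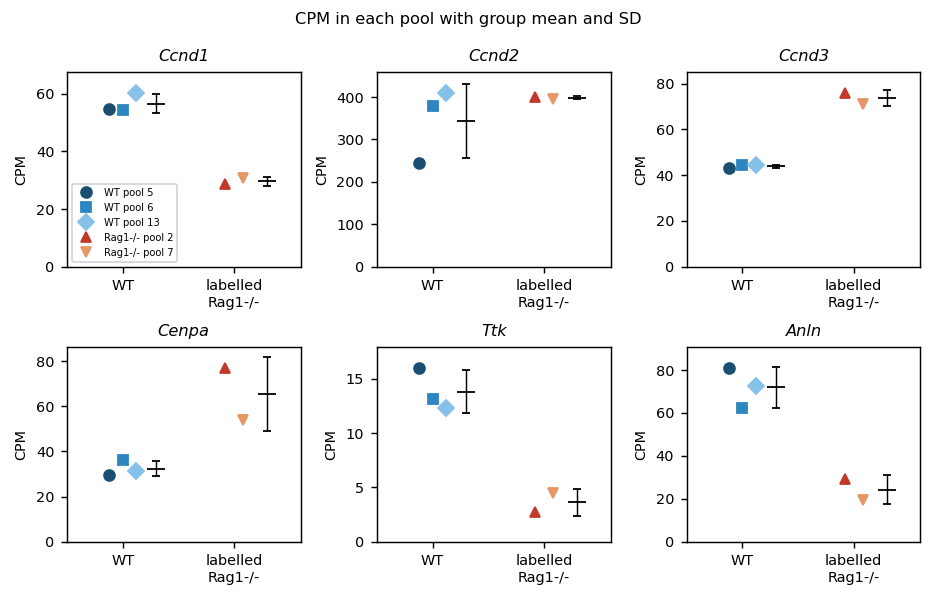
CPM in each library for the D-type cyclins, *Cenpa*, and the mitosis genes *Ttk* and *Anln*, with the group mean and SD (n = 3 WT, n = 2 labelled Rag1-/-) as a bar at the right of the points. Each vertical axis starts at 0. The groups are apart for all but *Ccnd2*, where WT pool 5 (244 CPM) is below 4 libraries between 378 and 410.0 CPM.

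None of the 4 CDK inhibitors was past the threshold. *Cdkn1a*, encoding p21, the inhibitor induced by p53, had 484, 532 and 519 CPM in WT pools 5, 6 and 13 and 372 and 635 CPM in the libraries labelled Rag1-/- (pools 2 and 7). These last were the lowest and the highest of all, so that the difference was within their spread (log2 fold change 0.02, SE 0.28, adjusted p = 0.98 by edgeR). Per kilobase *Cdkn1a* had the highest level of all 47 genes, 144 ± 7.10 CPM per kb in WT (SD, n = 3). *Cdkn1b*, encoding p27, which keeps resting lymphocytes out of the cycle, had 99.5, 164 and 139 CPM in WT and 236 and 193 CPM in the libraries labelled Rag1-/-. Both of the latter were above every WT pool, without passing the test (log2 fold change 0.70, SE 0.25, adjusted p = 0.138 by edgeR). *Cdkn2c*, encoding p18, had at log2 fold change 0.26 (SE 0.26) and its groups overlapped. *Cdkn2a*, the locus of p16 and p19ARF, was close to the limit of detection, counted 5, 17 and 4 times in WT, 4 times in pool 2 and 40 times in pool 7, where 3 counts are 0.373 CPM in the shallow pool 2 and 0.0771 CPM in pool 7. Its log2 fold change of 1.83 (SE 0.81, adjusted p = 0.204 by edgeR) was the largest of the members, and ranged from 1.04 without Rag1-/- pool 7, where that of *Cenpa* was larger (1.19), to 2.68 without WT pool 6.

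The 16 S phase genes were mostly higher in the libraries labelled Rag1-/-, by less than the threshold. Their median log2 fold change was 0.45, against 0.02 for all genes tested, with 12 positive and 4 negative. In 9 of the 16 both libraries labelled Rag1-/- were above every WT library, against 21.9% of all genes tested, and in none were both below, against 24% of all genes. None was past the threshold, and none had an adjusted p-value under 0.05 with edgeR, while 5 had an unadjusted p-value under 0.05 and were higher (*Cdc6*, *Mcm6*, *Mcm3*, *E2f1* and *Mcm5*), against 14.1% of all genes in that direction. With DESeq2 *Mcm6* alone passed on the adjusted p-value (0.0312, log2 fold change 0.65), where 18.2% of all genes did. The median was between 0.38 and 0.43 with the other scalings, filters, tests and thinned counts, and 0.30 without Rag1-/- pool 7.

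At the entry into S phase, *E2f1*, the activating E2F factor, had 15.8, 12.2 and 12.7 CPM in WT pools 5, 6 and 13 and 21.9 and 19.2 CPM in the libraries labelled Rag1-/- (pools 2 and 7), without overlap (log2 fold change 0.62, SE 0.22, adjusted p = 0.135 by edgeR). *Cdc6*, which loads the helicase onto origins, had the highest log2 fold change of these genes, 0.79 (SE 0.33, adjusted p = 0.183 by edgeR), from 2.89, 2.58 and 2.46 CPM in WT to 4.72 and 4.24 CPM in the libraries labelled Rag1-/-. It was counted 38 times in pool 2, and its log2 fold change was 0.49 with thinned counts. Its partner in loading *Cdt1* (log2 fold change 0.44) and the cyclin E1 gene *Ccne1* (0.50) had groups apart in the same direction, and for the cyclin E2 gene *Ccne2* (0.47), which overlaps *Ints8*, the groups overlapped. *Cdk2*, the kinase of cyclin E, had 45.5, 47.3 and 49.9 CPM in WT and 39.3 and 45.7 CPM in the libraries labelled Rag1-/- (log2 fold change -0.13, SE 0.19).

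*Mcm2* to *Mcm7* encode the 6 subunits of the replicative helicase, which are needed in equal number. In 5 of the 6 genes both libraries labelled Rag1-/- were above every WT pool, against 21.9% of all genes tested. *Mcm6* had 54.2, 59.2 and 60.9 CPM in WT and 80.0 and 101 CPM in the libraries labelled Rag1-/-, at log2 fold change 0.68 (SE 0.20, adjusted p = 0.0863 by edgeR). *Mcm3* had 31.5, 29.2 and 32.4 CPM in WT and 41.4 and 51.5 CPM in the libraries labelled Rag1-/- (log2 fold change 0.62, adjusted p = 0.104 by edgeR). *Mcm5* (0.58), *Mcm2* (0.47) and *Mcm7* (0.28, with neighbours *Cops6* and *Ap4m1* that share bases with it) were smaller, and these 5 stayed positive in the 13 other settings. *Mcm4* stood apart, with 59.1, 63.5 and 67.8 CPM in WT and 61.6 and 55.5 CPM in the libraries labelled Rag1-/- (log2 fold change -0.08, SE 0.18), and was negative in all of those settings. Per kilobase of exon the WT levels of the subunits ran from 3.94 ± 0.833 CPM per kb for *Mcm2* to 17.7 ± 1.21 for *Mcm4* (SD, n = 3). In the libraries labelled Rag1-/- *Mcm6* (19.4 ± 3.23) and *Mcm4* (16.3 ± 1.19, SD, n = 2) did not differ beyond their spread. Which subunit is highest depends on the length used. All annotated exons of *Mcm6* join to 4666 bases and its deposited length is 2910, whereas *Mcm4* has 3589 bases in both. The summed level of the 6 genes was 223 to 243 CPM in WT and 288 and 328 CPM in pools 2 and 7.

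Genes for nucleotide supply and the sliding clamp did not share this. *Pcna*, the clamp of the DNA polymerases, had 70.3, 77.0 and 89.0 CPM in WT and 66.7 and 111 CPM in the libraries labelled Rag1-/- (log2 fold change 0.22, SE 0.27). *Rrm1*, the large subunit of ribonucleotide reductase, had 83.4, 77.6 and 90.1 CPM in WT and 56.9 and 100.3 CPM in the libraries labelled Rag1-/- (log2 fold change -0.04, SE 0.27). *Tyms*, thymidylate synthase, had the lowest log2 fold change of the S phase genes, with 15.4, 12.7 and 15.7 CPM in WT and 8.94 and 13.8 CPM in the libraries labelled Rag1-/- (log2 fold change -0.31, SE 0.28, adjusted p = 0.549 by edgeR). In these 3 genes and in *Rrm2* (0.02), the small reductase subunit, pool 2 had the lowest level of all 5 libraries and pool 7 was above it.

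**Figure D3:**
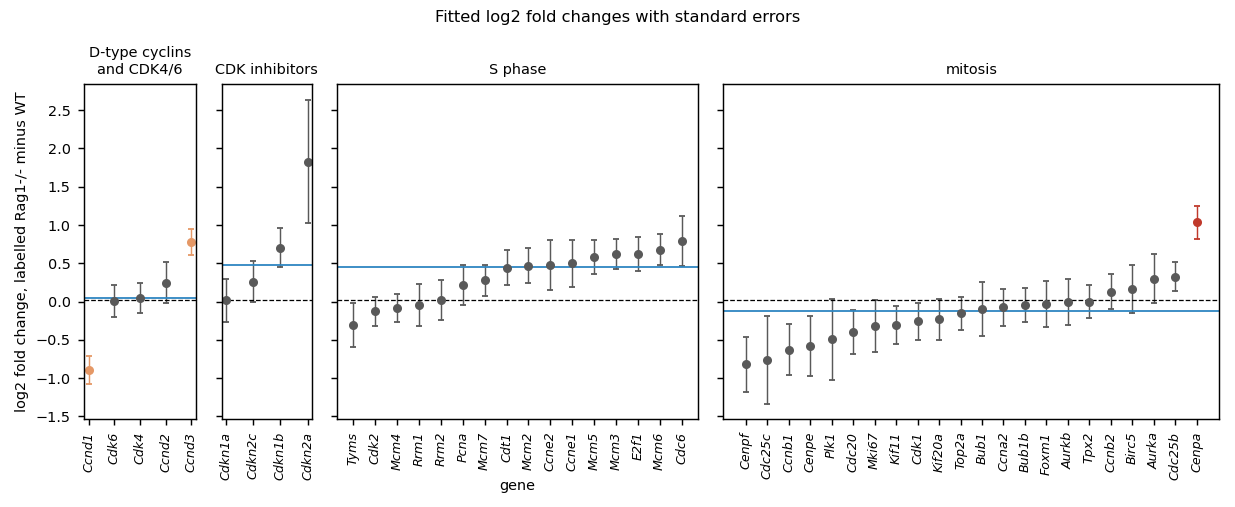
Fitted log2 fold change (libraries labelled Rag1-/- minus WT, edgeR) with its SE for each of the 47 genes, in panels by role. The dashed line is the median of all genes tested (0.02) and the blue line the median of each panel, 0.45 for S phase and -0.13 for mitosis. *Cenpa*, past both thresholds, is red, and *Ccnd1* and *Ccnd3*, past the adjusted p-value alone, are orange.

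The 22 mitosis genes had a median log2 fold change of -0.13, with 6 positive and 16 negative, and 21 of them did not pass the threshold. Their median was between -0.21 and -0.15 with the other scalings, filters, tests and thinned counts, and turned to 0.07 without WT pool 5. *Mki67* had 162, 129 and 162 CPM in WT pools 5, 6 and 13 and 168 and 71.3 CPM in the libraries labelled Rag1-/- (pools 2 and 7). Pool 2 was the highest of all libraries and pool 7 the lowest, so that the difference was within the spread (log2 fold change -0.32, SE 0.34, adjusted p = 0.617 by edgeR). *Top2a*, the topoisomerase that untangles sister chromatids, had 97.5, 79.3 and 101 CPM in WT and 95.8 and 67.4 CPM in the libraries labelled Rag1-/- (log2 fold change -0.15, SE 0.22). The regulators and kinases of entry into mitosis, *Foxm1* (-0.03), *Ccna2* (-0.07), *Cdk1* (-0.26), *Aurka* (0.30), *Aurkb* (-0.01) and *Plk1* (-0.50), had groups that overlapped, as had the spindle checkpoint kinases *Bub1* (-0.10) and *Bub1b* (-0.04), the survivin gene *Birc5* (0.17) and the spindle factors *Tpx2* (0.00) and *Kif11* (-0.31).

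The mitotic cyclins differed from each other. *Ccnb1*, encoding cyclin B1, had 4.33, 4.10 and 4.10 CPM in WT and 2.48 and 2.75 CPM in the libraries labelled Rag1-/-, both below every WT pool (log2 fold change -0.63, SE 0.33, adjusted p = 0.282 by edgeR). *Ccnb2*, encoding cyclin B2, had 16.4, 12.97 and 14.2 CPM in WT and 14.7 and 16.3 CPM in the libraries labelled Rag1-/- (log2 fold change 0.13, SE 0.23). Both libraries labelled Rag1-/- were also below every WT pool in *Cdc20* (-0.40), the activator of the anaphase-promoting complex, *Kif20a* (-0.23), a kinesin of cytokinesis, and *Cenpf* (-0.82), a kinetochore protein, which makes 4 of 22 genes against 24% of all genes. *Cdc25b* (0.32), a phosphatase that activates CDK1, and *Cenpa* were apart in the other direction. *Cdc20* shares 53 bases with the abundant *Elovl1*, *Kif20a* 2315 bases with *Cdc23*, *Cdc25b* 334 bases with *Spef1*, and *Ccna2* 863 bases with *Exosc9*.

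*Cenpa* (chromosome 5 of GRCm38, 30666777 to 30674830) encodes the histone H3 variant that marks centromeres. It had 29.6, 36.0 and 31.5 CPM in WT pools 5, 6 and 13 and 77.1 and 53.8 CPM in the libraries labelled Rag1-/- (pools 2 and 7). Both libraries labelled Rag1-/- were well above the WT pools, with means of 65.5 ± 16.5 (SD, n = 2) and 32.4 ± 3.31 CPM (SD, n = 3), a ratio of 2.02 at log2 fold change 1.04 (SE 0.22, adjusted p = 0.0401 by edgeR). No other gene of the table overlaps it. Its fold change stood on the threshold. It was 0.96 without the filter, 0.997 with at least 10 counts in every library and 0.989 with limma on the deposited signal, each with an adjusted p-value under 0.05, so that the call ended there. The adjusted p-value was 0.11 to 0.132 without any 1 WT pool and 0.0817 without Rag1-/- pool 2 (log2 fold change 0.80). Of the other *Cenp* genes among the members, *Cenpe* was at -0.58 and *Cenpf* at -0.82, and neither passed the test.

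E2F factors and the MuvB complex are known to act through different promoter motifs, and a promoter of RefSeq (GRCm38.p6) was matched by symbol for 37 of the 47 genes. Those not matched were *Ccnd1*, *Ccnd2*, *Ccne2*, *Mcm4*, *Foxm1*, *Ccna2*, *Cdc25c*, *Aurkb*, *Kif20a* and *Tpx2*. In a window of 280 bases, 250 before and 30 after the start, the E2F letters TTCCCGC or TTGGCGC or TTGCCGC or TTCGCGC on either strand were found in 9 of 14 S phase genes and in 3 of 16 mitosis genes, against 8.90% of all 32851 promoters. The letters TTTGAA on either strand, the core of the cell cycle homology region (CHR), were found in 8 of 16 mitosis genes and 1 of 14 S phase genes, against 17.2% of all promoters. CCAAT on either strand was found in 15 of 16 mitosis genes and 9 of 14 S phase genes, against 36.1%. All 8 mitosis genes with the CHR letters also held CCAAT, a pair found in 6.40% of all promoters. The promoters of 2 helicase genes that were higher in the libraries labelled Rag1-/- and of 4 mitosis genes are shown 5′ to 3′ to compare these letters, with every match in capitals. *Mcm6* (0.68) is at chr1:128359676-128359955, minus strand, and *Mcm5* (0.58) at chr8:75109259-75109538, plus strand.
Mcm6: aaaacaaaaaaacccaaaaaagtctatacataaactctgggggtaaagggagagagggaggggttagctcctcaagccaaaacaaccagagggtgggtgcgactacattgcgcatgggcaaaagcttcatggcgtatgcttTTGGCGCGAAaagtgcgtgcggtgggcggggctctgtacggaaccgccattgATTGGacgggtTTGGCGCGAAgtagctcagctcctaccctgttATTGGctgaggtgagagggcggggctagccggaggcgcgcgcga
Mcm5: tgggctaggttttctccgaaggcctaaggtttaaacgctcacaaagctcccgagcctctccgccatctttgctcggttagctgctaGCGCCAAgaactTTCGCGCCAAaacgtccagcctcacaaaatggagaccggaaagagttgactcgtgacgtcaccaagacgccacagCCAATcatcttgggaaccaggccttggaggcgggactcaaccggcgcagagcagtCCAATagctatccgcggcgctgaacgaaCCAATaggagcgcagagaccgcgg
*Cenpa* (1.04) is at chr5:30666636-30666915, plus strand, *Ccnb2* (0.13) at chr9:70421525-70421804, minus strand, *Mki67* (-0.32) at chr7:135716350-135716629, minus strand, and *Cenpf* (-0.82) at chr1:189688057-189688336, minus strand.
Cenpa: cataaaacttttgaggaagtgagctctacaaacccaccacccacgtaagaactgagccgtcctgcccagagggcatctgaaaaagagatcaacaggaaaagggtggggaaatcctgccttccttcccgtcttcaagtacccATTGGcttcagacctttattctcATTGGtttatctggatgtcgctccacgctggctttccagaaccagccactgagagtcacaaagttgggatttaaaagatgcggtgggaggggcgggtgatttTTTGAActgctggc
Ccnb2: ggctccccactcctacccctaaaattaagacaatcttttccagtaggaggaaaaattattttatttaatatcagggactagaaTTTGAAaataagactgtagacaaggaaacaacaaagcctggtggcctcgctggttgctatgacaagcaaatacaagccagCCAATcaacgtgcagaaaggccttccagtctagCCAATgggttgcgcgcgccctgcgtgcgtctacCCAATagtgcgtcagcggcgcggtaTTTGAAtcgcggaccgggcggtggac
Mki67: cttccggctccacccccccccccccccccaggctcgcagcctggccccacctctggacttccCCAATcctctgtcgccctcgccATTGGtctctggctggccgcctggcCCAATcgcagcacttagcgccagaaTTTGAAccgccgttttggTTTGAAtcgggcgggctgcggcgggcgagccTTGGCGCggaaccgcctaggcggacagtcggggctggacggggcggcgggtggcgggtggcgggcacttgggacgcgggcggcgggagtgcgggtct
Cenpf: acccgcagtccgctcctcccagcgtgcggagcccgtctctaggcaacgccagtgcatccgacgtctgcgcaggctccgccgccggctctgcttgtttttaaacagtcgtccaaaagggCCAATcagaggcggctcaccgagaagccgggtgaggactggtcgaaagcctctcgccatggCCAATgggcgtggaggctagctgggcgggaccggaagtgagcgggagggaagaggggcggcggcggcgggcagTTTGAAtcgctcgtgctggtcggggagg
In both helicase promoters shown E2F letters overlap each other on opposite strands, and in *Mcm6* they occur as the same run of letters in 2 places. Of the other higher helicase genes, *Mcm7* also held such an overlap in 1 of its promoters, *Mcm3* held 1 E2F match and *Mcm2* held none. *Cenpa* and *Cenpf*, the called gene and the gene with the lowest log2 fold change of the mitosis genes, both held the CHR letters within the first 30 transcribed bases with CCAAT upstream. So did *Ccnb2*, with a log2 fold change of 0.13. These letters are a description of the window and not of binding.

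Pools of the same genotype differed in the mitosis genes in a common order. WT pool 5 had the highest level of the WT pools in 17 of the 22 genes (77.3%, against 34.8% of all genes tested). WT pool 6 had the lowest in 19 of the 22, against 5831 of the 19011 genes tested. Of the libraries labelled Rag1-/-, pool 7 was below pool 2 in 16 of the 22 genes (72.7%, against 50.3% of all genes). In the S phase genes pool 7 was above pool 2 in 12 of 16, against 9424 of the 19011 genes tested. Summed over the 22 genes, the level was 615, 476 and 565 CPM in WT pools 5, 6 and 13 and 611 and 417 CPM in pools 2 and 7. Over the 16 S phase genes it was 535, 507 and 559 CPM in WT and 550.1 and 693 CPM in pools 2 and 7. The ratio of S phase to mitosis levels was therefore 0.870, 1.07 and 0.989 in WT, 0.901 in pool 2 and 1.66 in pool 7. Pool 2 was within the range of the WT pools and pool 7 alone above it, so that the groups overlapped.

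**Figure D4:**
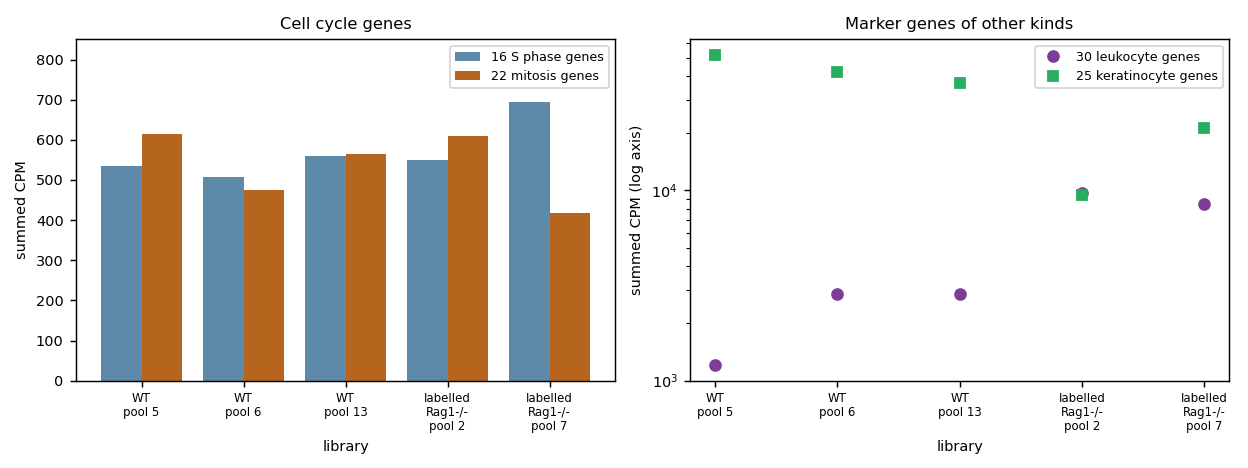
Summed CPM of the 16 S phase and 22 mitosis genes in each library (left, bars from 0), and of the 30 leukocyte and 25 keratinocyte marker genes (right, points on a log axis). The cell cycle sums stay between 417 and 693 CPM, while the leukocyte sum ranges from 1203 to 9726 CPM and the keratinocyte sum from 9441 to 51650 CPM.

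Pool 7 was low for long genes as a whole. Among 1932 genes tested with over 9000 bases of exon, the median level in pool 7 was 0.36 below the WT mean on the log2 scale, against 0.06 below for all genes tested, and in pool 2 it was 0.07 above. *Mki67* (10061 bases of exon) was 1.07 below the WT mean in pool 7 and 0.17 above in pool 2, *Cenpf* (15433 bases) 1.57 and 0.31 below, and *Cenpe* (8620 bases) 1.34 and 0.04 below. Of the other members with over 9000 bases, *Cdk6* (13989 bases) and *Top2a* (9013 bases) were 0.25 and 0.45 below in pool 7. *Rrm1* (11012 bases) and *Ccnd2* (9409 bases) went the other way in pool 7, at 0.26 and 0.24 above the WT mean. *Cdc25c*, with fewer bases of exon (4919), was 1.87 below the WT mean in pool 7, from 40 counts. An offset for exonic length in each library, chosen after the data were seen, moved *Mki67* from -0.32 to -0.28 and left the mitosis median at -0.13. The cause of the low levels in pool 7 was not tested.

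**Figure D5:**
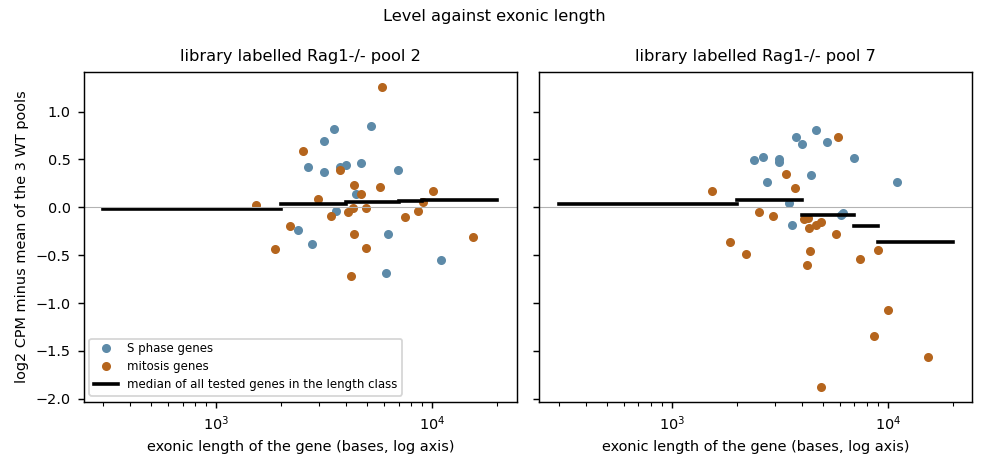
Level of the S phase genes (blue) and mitosis genes (brown) in the libraries labelled Rag1-/-, as log2 CPM minus the mean of the 3 WT pools, against the exonic length of the gene in bases on a log axis. Black lines are the medians of all tested genes in 5 classes of length, which fall to -0.36 for genes over 9000 bases in pool 7 and stay near 0 in pool 2.

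The summed levels of the S phase and mitosis genes stayed between 417 and 693 CPM while those of the leukocyte and keratinocyte genes differed several-fold. Relative to the summed leukocyte level, the mitosis genes had 512, 166 and 198 CPM per 1000 leukocyte CPM in WT pools 5, 6 and 13 and 62.8 and 49.0 in pools 2 and 7, and the S phase genes had 445, 177 and 196 in WT and 56.6 and 81.4 in pools 2 and 7. Both ratios were lower in the libraries labelled Rag1-/- than in any WT pool, where the leukocyte sum that divides them was higher. The highest mitosis sums were those of WT pool 5 (615 CPM), which had the lowest leukocyte and the highest keratinocyte sum, and of pool 2 (611 CPM), which had the highest leukocyte and the lowest keratinocyte sum. Which cells the cell cycle RNA came from cannot be told from these libraries.

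Beyond the 47 genes, 127 further genes of the cycle from 4 lists were tested, and 2 of them were past the threshold, both lower in the libraries labelled Rag1-/- (5.73% of all genes were called). *Ttk* (chromosome 9, 83834689 to 83872389), the kinase MPS1 that starts the spindle checkpoint, had 16.0, 13.1 and 12.3 CPM in WT pools 5, 6 and 13 and 2.73 and 4.496 CPM in the libraries labelled Rag1-/-, at log2 fold change -1.86 (SE 0.34, adjusted p = 0.0329 by edgeR). *Anln* (chromosome 9, 22331214 to 22389206), encoding anillin, the scaffold of the contractile ring, had 81.1, 62.2 and 72.5 CPM in WT and 29.1 and 19.6 CPM in the libraries labelled Rag1-/-, at log2 fold change -1.55 (SE 0.24, adjusted p = 0.0306 by edgeR). Both were apart by more than the spread of the pools, and lost the call without any 1 WT pool or without Rag1-/- pool 2 (adjusted p = 0.0665 to 0.112 for *Ttk* and 0.0659 to 0.109 for *Anln*, edgeR).

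The list of 51 further mitosis genes had a median log2 fold change of -0.16, with 18 positive and 33 negative. In 13 of them (25.5%) both libraries labelled Rag1-/- were below every WT pool, near the 24% of all genes. In 2 (3.92%) both were above, against 21.9% of all genes. The 43 further S phase genes had a median of 0.03, with 24 positive and 19 negative, where the 16 members had a median of 0.45. Of these 43 genes 7 (16.3%) were apart as higher and 4 (9.30%) as lower, against 21.9% and 24% of all genes. Their smallest p-values belonged to *Slbp* (0.72), which binds histone mRNA, *Dut* (0.72), which removes dUTP, and *Pold1* (0.67), the catalytic subunit of polymerase delta, with adjusted p-values of 0.072, 0.084 and 0.0889 (edgeR). Among 18 genes of RB, E2F and MuvB, *Rbl2*, encoding the RB-like p130 of resting cells, had 55.7, 65.3 and 73.9 CPM in WT and 171 and 93.6 CPM in the libraries labelled Rag1-/- (log2 fold change 1.05, SE 0.27, adjusted p = 0.0661 by edgeR). In the same list *E2f8*, a repressor E2F, had 16.3, 10.9 and 11.9 CPM in WT and 6.58 and 5.24 CPM in the libraries labelled Rag1-/- (-1.12, SE 0.30, adjusted p = 0.0696 by edgeR), and *Rbbp4*, the MuvB and chromatin subunit, had a log2 fold change of 0.57. *Rbl2* was past the threshold with DESeq2 (adjusted p = 0.0113), with thinned counts (0.0449 by edgeR), with the length offset (0.0496) and without Rag1-/- pool 7 (0.0168), and its log2 fold change was 0.60 without Rag1-/- pool 2. *E2f8* was past the threshold with DESeq2 (adjusted p = 0.00473), without the filter (0.0259 by edgeR) and with at least 10 counts in every library (0.0419). Of 15 genes of CDK control none passed, and the smallest p-values were those of *Cdkn1c* (0.59), encoding p57, *Ccng1* (0.59), a p53 target, and *Fzr1* (0.49), the CDH1 activator of the anaphase-promoting complex, with adjusted p-values from 0.146 to 0.183 (edgeR).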

How the data were processed

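RNA of sorted dermal ILC2s was sequenced in 5 libraries of pooled mice. Alignment by the authors was to GRCm38, with STAR 2.5, and their featureCounts 1.5.0-p1 output was deposited as raw counts per gene, and a second table of normalized signal that the authors made by dividing the counts by a size factor. The length column deposited by the authors was not used to compute any level. From the counts, genes were filtered with filterByExpr of edgeR 4.0.16 in R 4.3.3, scaled with TMM and tested with its quasi-likelihood test, with genotype as the only factor, over 19011 genes with Benjamini-Hochberg adjustment. Calls needed a log2 fold change beyond 1 in either direction and 0.05 or less as the adjusted p-value. Each SE was derived from the F statistic of the test, as the absolute log2 fold change over the square root of F. CPM are counts scaled to a library's total. Exonic lengths were taken from GENCODE M21 on GRCm38 as the union of all annotated exons of a gene, and 6 list genes were matched by identifier. Levels relative to the WT mean are log2 CPM with 0.5 counts added. Totals per library of 8050562 to 39477243 counts set the precision. The smallest level read was 3 counts, which covers counting error only. The test was also run on simulated counts with changes set in advance, as a check of the code and not of the calls made here.

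Genes described in full are *Mki67*, every called gene, and in each role the highest and lowest log2 fold change and the 2 highest mean CPM. *Ccnb1*, *Ccnb2*, *Cdk2*, *Cdkn2c*, *E2f1*, the *Mcm* genes and the genes given by log2 fold change alone were added after their values were seen. The members and lists were chosen with earlier results of these data known. The alternatives were DESeq2 1.42.0, RLE scaling, library size alone, no filter, a minimum of 10 counts per library, calls by p-value alone, thinning to 8050562 counts, limma 3.58.1 on the deposited signal (log2, pseudocount 1), each library left out, and an offset for gene length added later.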

Additional observations from a re-analysis of the deposited data

How the results depend on the processing

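The count of members past the threshold was 1, and it was 1 with RLE scaling, library size alone, thinned counts, DESeq2 and the offset for gene length. It was 0 without the filter, with at least 10 counts in every library and with limma on the deposited signal, where *Cenpa* fell just under a log2 fold change of 1, and 3 on the adjusted p-value alone. It ranged from 0 to 2 with 1 library left out, the 2 being *Cenpa* and *Ccnd1* without Rag1-/- pool 7. Without any 1 WT pool or Rag1-/- pool 2 no gene of the table was called by edgeR, while 3521 to 5200 genes had an unadjusted p-value under 0.05. The count of further genes past the threshold was 2, 4 without the filter, with at least 10 counts, with thinned counts and with the length offset, 3 with limma, 5 with DESeq2, and 0 to 3 with 1 library left out. The genes gained were *Ckap2l*, *E2f8* and *Rbl2*. Over all genes the count was 1090, 1273 with thinned counts, 1497 with at least 10 counts, 2645 without the filter, 2464 with DESeq2, and 0 to 2409 with 1 library left out.

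The S phase median was 0.296 to 0.547 and the mitosis median -0.24 to 0.07 with 1 library left out. Log2 fold changes near 0 changed sign. For *Cdk4* (0.05) they were -0.019 without the filter, -0.0203 with the length offset, -0.0004 with at least 10 counts, -0.0105 with thinned counts, -0.0028 with limma and -0.197 to 0.21 with 1 library left out. For *Cdkn1a* (0.02) they were -0.0103 with RLE scaling, -0.0102 with DESeq2, -0.0229 with library size alone, -0.036 without the filter, -0.0297 with at least 10 counts, -0.0024 with thinned counts, -0.0815 with limma, -0.045 with the length offset and -0.522 to 0.383 with 1 library left out. *Rrm1* was 0.1 with the length offset. With 1 library left out the range was -0.62 to 0.33 for *Rrm1*, -1.01 to 0.10 for *Mki67* and -0.30 to 0.56 for *Pcna*. The causes were not tested. Where a group was left with 1 library, that library was assumed to vary like the others. No paired analysis was possible because the groups share no replicate numbers. Pool 2, with the fewest counts, limits what can be read from *Cdkn2a*, which was not tested with at least 10 counts or with thinned counts.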
